A study of Homo sapiens with 6 samples.

Results

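RAB GTPases are small proteins that mark membrane compartments and direct vesicle traffic, and here they were examined with the TBC-domain and DENN-domain proteins that regulate them. Members were chosen by gene symbol alone: symbols of the RAB, TBC1D and DENND families, and 8 further TBC-domain genes named individually (RABGAP1, RABGAP1L, EVI5, EVI5L, USP6NL, SGSM1, SGSM2 and SGSM3). The rule found 112 of 31122 genes in the count table, of which 57 were RAB, 42 TBC and 13 DENN genes. RNA came from MDA-MB-468, an established basal-like, triple-negative breast cancer cell line. The study asked how loss of GPR52, an orphan G protein-coupled receptor, alters these cells. The parental group (genotype label WT) held 3 libraries from wells of 1 plate, and 3 further libraries carry the label GPR52 KO and came from populations made with CRISPR-Cas9 and the guide sgRNA1. Nothing in the labels tells if each such population is 1 clone or a pool, and no control population with a non-targeting guide was analysed here.

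A RAB protein cycles between an inactive form bound to GDP and an active form bound to GTP. Exchange factors, among them the DENN-domain proteins, load GTP and switch a RAB on at its membrane, and GTPase-activating proteins, most of them with a TBC domain, switch it off. The active RAB recruits effectors (tethers, motors and lipid kinases), while prenylation enzymes and GDP dissociation inhibitors put it on the membrane and take it off again. In epithelial cells this system sorts receptors between degradation and recycling and delivers cargo to the apical and basolateral surfaces.

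Total counts lay between 25637794 and 31692454 per library. The GPR52 transcript went against the knockout label: its counts were 9, 1 and 0 in the parental libraries and 645, 694 and 724 in the libraries labelled KO, so the second group is called KO-labelled throughout. Were the labels of the 2 groups exchanged, every direction given here would turn, and no other check of the labels was made here. Summed epithelial markers (7 genes) reached 5388 to 5941 CPM (counts scaled to library size) in the parental libraries. In the KO-labelled libraries they reached 4574 to 5264 CPM. The 4 basal-like markers summed to 6169 to 6474 CPM in the parental and 6171 to 9827 CPM in the KO-labelled libraries. Most of this was EGFR, which had 8307 CPM in KO-labelled 3. Markers of other cell types stayed low: 5 fibroblast markers summed to 6.63 to 8.42 and 23.8 to 28.0 CPM (nearly all COL1A1), 3 endothelial markers to 3.69 to 4.22 and 3.18 to 7.28 CPM, and 5 leukocyte markers to 27.3 to 37.1 and 2.46 to 4.07 CPM (nearly all CD14). Of the defining genes, COL1A2, LUM, CD3E and LYZ had at most 1 count in a library. PTPRC had 9, 6 and 7 counts in the parental and 1, 2 and 0 in the KO-labelled libraries, PDGFRA at most 9 and PDGFRB at most 8. The part of these shifts in the results below was not tested.

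Of the 112 members, 100 had enough counts to be tested. With edgeR's quasi-likelihood test and Benjamini-Hochberg adjustment over 17420 genes (adjusted p under 0.05, here "called"), 17 members were higher in the KO-labelled libraries, 29 were lower and 54 were not called. The called share was 46% of the members, against 40.8% of all tested genes (21.0% called higher and 19.8% called lower). In 64 tested members the groups did not overlap in CPM, as in 54.4% of all tested genes, and 7 members were called with a change over 2-fold, as were 12.1% of all tested genes. The median log2 fold change (KO-labelled over parental) was -0.10 over the members and 0.01 over all tested genes. The families differed in these counts: 29 of 50 RAB genes were called (10 higher, 19 lower, median -0.23), 12 of 38 TBC genes (5 higher, 7 lower, median -0.08) and 5 of 12 DENN genes (2 higher, 3 lower, median 0.09). The DENN count was 3 without parental 2, parental 3 or KO-labelled 2. Well-expressed genes were called more often in general: among genes with at least 10 CPM in 3 libraries, 47.6% of 10373 were called (23.8% higher, 23.8% lower), against 26 of 39 RAB genes (8 higher, 18 lower), 14 of 35 TBC genes and 4 of 9 DENN genes. On log2(FPKM + 0.1), where FPKM is the authors' length-scaled value, limma called 12 RAB genes higher and 14 lower. All p-values measure the spread between these libraries, which for the parental wells may be technical. In bulk RNA, fewer cells of a kind and less RNA per cell cannot be told apart.

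**Figure D1:**
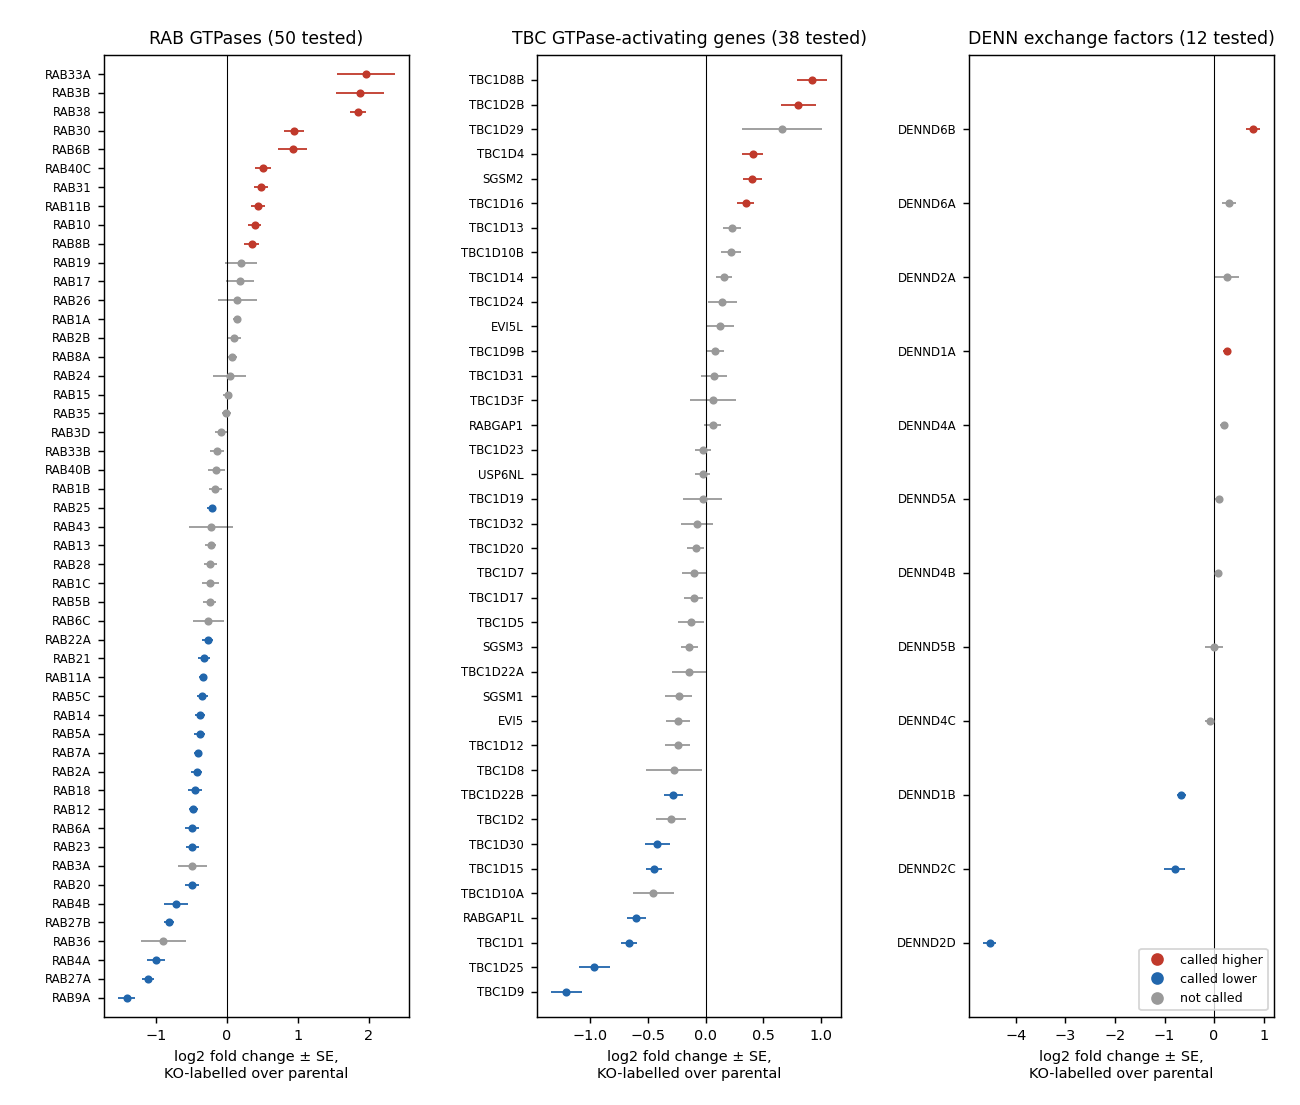
Log2 fold change (KO-labelled over parental, point) with its standard error (bar) for every tested member, in 3 panels for the 50 RAB, 38 TBC and 12 DENN genes; red was called higher, blue called lower and grey not called. DENND2D, at -4.52, lies far below every other member, and the RAB panel holds more blue points (19) than red ones (10).

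The promoters of 4 members are shown because 2 of them belong to the genes that changed most (DENND2D fell, RAB3B rose) and 2 to the paralogues RAB27A and RAB27B, which fell together. Each run is the 250 bases before the gene's start in RefSeq on GRCh38.p14, read 5′ to 3′ on the gene's strand, and capitals mark the letters GGGCGG or their reverse complement CCGCCC, the core of a GC box. The windows are chr1:111200647-111200896 (minus strand) for DENND2D, chr1:51990701-51990950 (minus) for RAB3B, chr15:55319124-55319373 (minus) for RAB27A and chr18:54717607-54717856 (plus) for RAB27B.
DENND2D: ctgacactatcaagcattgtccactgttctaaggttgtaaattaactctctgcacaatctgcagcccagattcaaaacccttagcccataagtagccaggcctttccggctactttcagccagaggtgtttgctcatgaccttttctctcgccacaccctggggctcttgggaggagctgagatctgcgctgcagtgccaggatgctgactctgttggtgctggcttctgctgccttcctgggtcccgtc
RAB3B: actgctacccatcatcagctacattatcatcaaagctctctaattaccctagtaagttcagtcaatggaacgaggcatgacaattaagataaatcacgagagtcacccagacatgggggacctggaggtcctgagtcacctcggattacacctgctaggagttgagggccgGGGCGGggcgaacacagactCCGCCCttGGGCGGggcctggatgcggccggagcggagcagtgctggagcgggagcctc
RAB27A: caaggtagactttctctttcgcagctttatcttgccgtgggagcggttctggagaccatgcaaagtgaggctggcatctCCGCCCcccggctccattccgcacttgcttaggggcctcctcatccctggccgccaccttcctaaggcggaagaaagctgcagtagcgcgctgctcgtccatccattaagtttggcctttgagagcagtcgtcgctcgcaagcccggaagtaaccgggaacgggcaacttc
RAB27B: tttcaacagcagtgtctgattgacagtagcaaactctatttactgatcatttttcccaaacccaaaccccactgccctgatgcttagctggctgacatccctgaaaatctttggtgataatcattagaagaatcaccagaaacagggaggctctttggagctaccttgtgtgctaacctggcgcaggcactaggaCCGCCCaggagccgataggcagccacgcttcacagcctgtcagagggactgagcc
The windows differ in their CG dinucleotides: DENND2D and RAB27B hold 4 each, RAB3B holds 12 and RAB27A holds 17, against a median of 21 over 10119 tested genes with an entry and of 23 over the 81 tested members with one. GGGCGG on either strand was present in 80.2% of these members and 66.2% of these genes, and was absent from the DENND2D window. The cAMP-response core TGACG (either strand) stood in 38.3% of the members and 29.3% of the genes, and CACGTG in 16.0% and 8.76%. None of the 4 printed windows holds TGACG or CACGTG. By call, TGACG was found in 7 of 24 members called lower, 5 of 13 called higher and 19 of 44 not called.

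The RABs of early and recycling endosomes were the role with the most falls. These proteins receive internalised receptors and return them to the surface. All 16 were tested: 10 fell (RAB4A, RAB4B, RAB5A, RAB5C, RAB11A, RAB14, RAB20, RAB21, RAB22A and RAB25), 2 rose (RAB11B and RAB31) and 4 were not called (RAB5B, RAB15, RAB17 and RAB35), with a median log2 fold change of -0.30. The share called lower over all tested genes was 19.8%. The 10 falls became 7 without parental 1, 6 without parental 2 (RAB5C, RAB21, RAB22A and RAB25 lost) and 8 without parental 3. On the authors' FPKM means every fall but that of RAB4A (log2 ratio -1.03) was smaller than in the fit. The ratio was -0.08 for RAB21 (-0.33 in the fit), -0.20 for RAB5C (-0.35) and -0.23 for RAB14 (-0.38). RAB4A, which drives fast recycling from early endosomes, had 47.1, 48.9 and 48.1 CPM in parental 1 to 3 and 27.8, 25.1 and 19.1 CPM in KO-labelled 1 to 3. The groups were far apart and KO-labelled 3 was the lowest library (log2 fold change -1.0, SE 0.13, adjusted p = 6.8e-04). RAB4B, its paralogue, read 5.28, 6.4 and 6.65 CPM against 3.28, 3.36 and 4.50 CPM (-0.72, SE 0.17, adjusted p = 0.012), and was not called without parental 3 (adjusted p = 0.053). RAB4B shares exons with readthrough transcripts, so its counts are uncertain. RAB20, linked to phagosomes and endosomes, held 35.9, 35.8 and 35.9 CPM in the parental and 26.9, 22.5 and 27.1 CPM in the KO-labelled libraries (-0.49, SE 0.09, adjusted p = 0.0040).

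The core endosomal RABs moved less. RAB11A, the principal RAB of recycling endosomes, was at 162, 161 and 161 CPM in the parental libraries and at 126, 127 and 130.1 CPM in the KO-labelled ones. Its groups were separated and tight (-0.34, SE 0.06, adjusted p = 0.0026). On FPKM means its log2 ratio was -0.17. RAB25, the epithelial member of the RAB11 group, fell slightly, from 115 ± 2.95 to 99.2 ± 2.44 CPM (± is the SD, n = 3), and was not called without any 1 of the parental libraries. RAB11B, the third of that group, rose from 39.8 ± 3.72 to 53.8 ± 4.18 CPM. RAB31, which acts between the trans-Golgi and endosomes, rose from 145 ± 3.41 to 202 ± 29.3 CPM with its highest value, 235 CPM, in KO-labelled 3.

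Late endosomes and lysosomes are the next station. RAB9A, which serves retrieval from late endosomes to the trans-Golgi, fell most among all RAB genes: 32.9, 36.5 and 36 CPM in the parental libraries became 11.8, 12.0 and 15.6 CPM in the KO-labelled ones. No KO-labelled library reached the lowest parental value (-1.42, SE 0.12, adjusted p = 9.7e-05). RAB7A, the RAB of late endosome maturation and fusion with lysosomes, had the highest parental FPKM of all members (189 ± 4.29) and fell to 152 ± 4.45 FPKM. In CPM it read 304, 305 and 302 against 228, 223 and 236 (-0.41, SE 0.06, adjusted p = 0.0010). RAB24, linked to autophagy, was not called.

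Among RABs of secretory granules and lysosome-related organelles, members moved in both directions. RAB27A and RAB27B, which dock secretory vesicles at the plasma membrane, both fell. RAB27A had 22.3, 22 and 21.2 CPM in the parental and 10.1, 10.2 and 9.93 CPM in the KO-labelled libraries (-1.12, SE 0.09, adjusted p = 5.6e-05). RAB27B had 103, 111 and 96 CPM against 56.3, 60.4 and 58.9 CPM (-0.82, SE 0.08, adjusted p = 1.3e-04). By FPKM the division of the pair was similar in both groups, with RAB27A at 37.1% ± 6.69 in the parental and 35.0% ± 3.89 in the KO-labelled libraries. By CPM the RAB27A share went from 17.5% ± 0.808 to 14.7% ± 0.419, without overlap between the groups. RAB38, a RAB of melanosomes and related organelles, rose from 4.52, 3.77 and 4.24 CPM to 14.5, 15.8 and 14.9 CPM (1.85, SE 0.12, adjusted p = 2.1e-05). RAB3B, a RAB of regulated exocytosis, rose from 1.91, 2.11 and 1.51 CPM to 3.69, 7.21 and 9.18 CPM (1.87, SE 0.34, adjusted p = 0.0034). The KO-labelled libraries agreed closely for RAB38 and differed widely for RAB3B, whose SD in log2 CPM over the KO-labelled libraries (0.67) was the widest of all tested members. RAB3D, the main RAB3 gene of these cells with 96.6% and 96.7% of the set's FPKM in the parental and KO-labelled libraries, was not called, nor were RAB3A and RAB26.

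**Figure D2:**
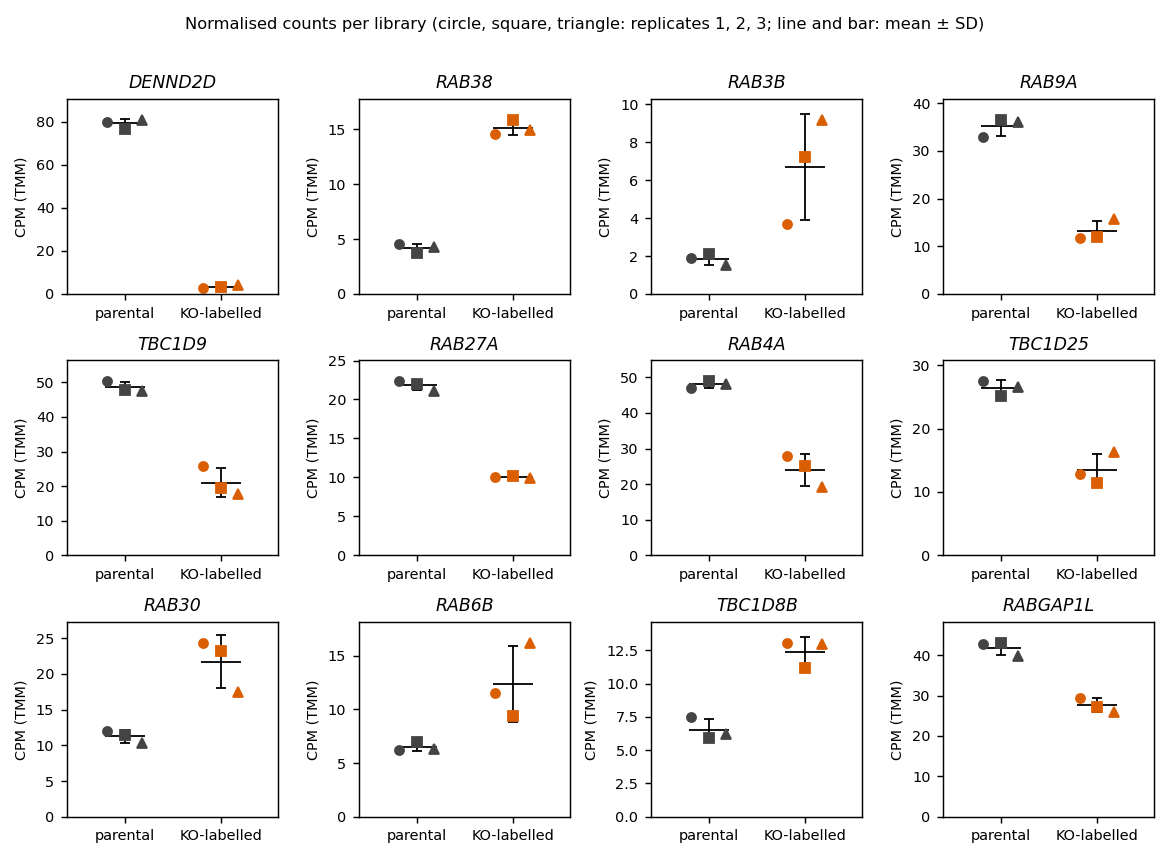
CPM with TMM library sizes in each library (circle, square and triangle are replicates 1, 2 and 3) for 12 members, with the mean as a line and the SD as a bar; every axis starts at 0. The 12 were taken from called members whose groups do not overlap, so the separation follows from the choice. RAB3B, RAB6B and RAB30 show the uneven KO-labelled libraries that RAB38 and RAB27A do not.

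RABs of the ER and Golgi were called about as often as all tested genes: 21.4% rose and 21.4% fell, against 21.0% and 19.8%. Of 14 tested, 3 rose (RAB6B, RAB30 and RAB33A), 3 fell (RAB2A, RAB6A and RAB18) and 8 were not called, among them RAB1A and RAB1B, which govern transport from the ER to the Golgi. RAB6B, the paralogue of RAB6A known from neurons, rose from 6.24, 6.95 and 6.30 CPM to 11.5, 9.33 and 16.2 CPM (0.93, SE 0.20, adjusted p = 0.0076), while RAB6A fell from 228 ± 4.75 to 162 ± 21.1 CPM. The RAB6B share of the RAB6 set was 3.23% ± 0.312 of FPKM in the parental and 9.53% ± 3.16 in the KO-labelled libraries. RAB30, a Golgi RAB, read 12.0, 11.4 and 10.3 CPM against 24.4, 23.2 and 17.5 CPM (0.95, SE 0.14, adjusted p = 0.0013). RAB33A was barely expressed, with 3, 5 and 3 counts against 16, 16 and 10, and did not pass the count filter without KO-labelled 2. RAB1B, at 179 ± 12.5 and 163 ± 19.3 FPKM, was among the most abundant members in both groups.

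The RAB8 group delivers cargo to the plasma membrane. RAB10, which acts in basolateral and GLUT4 vesicle transport, rose from 245, 257 and 239.5 CPM to 348, 339 and 283 CPM (0.39, SE 0.09, adjusted p = 0.0092), and at 212 ± 18.4 FPKM it was the most abundant member in the KO-labelled libraries. RAB8B also rose and RAB12 fell, and RAB8A and RAB13 were not called. RAB8B lost its call on leaving out either of 2 parental or of 2 KO-labelled libraries. RAB23, a RAB of ciliary and Hedgehog signalling, fell from 43.5 ± 3.78 to 30.9 ± 2.21 CPM. In the GENCODE annotation 57.7% of the exonic bases of RAB23 are overlapped by BAG2 on the other strand. With the strand setting of the counts unknown, the RAB23 counts are uncertain. RAB40C, which carries a SOCS box for ubiquitin ligases, rose from 14.2 ± 1.66 to 20.3 ± 1.06 CPM.

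**Figure D3:**
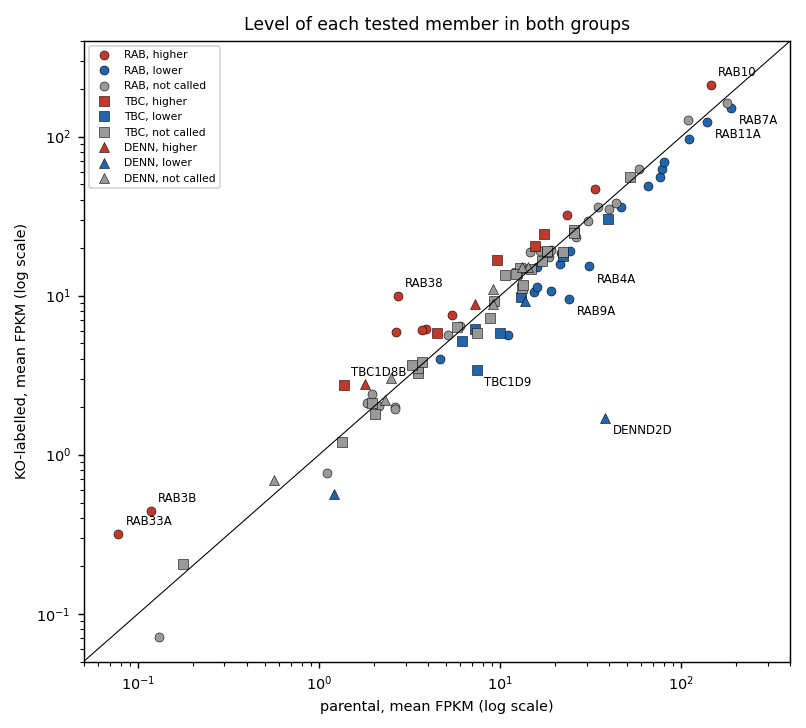
Mean FPKM of each tested member in the parental (horizontal) and KO-labelled libraries (vertical), both on log axes, with the line of equal level; circles are RAB, squares TBC and triangles DENN genes, coloured by call. DENND2D drops from 38.0 to 1.69 FPKM, while RAB7A, RAB1B, RAB10 and RAB11A stay at the top in both groups.

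DENND2D, which belongs to a DENN subfamily described as exchange factors for RAB9, showed the steepest fall of any member. It had 80.0, 76.7 and 80.9 CPM in parental 1 to 3 and 2.98, 3.08 and 4.25 CPM in KO-labelled 1 to 3. Its level thus fell by 95.7% in the fit (-4.52, SE 0.13, adjusted p = 1.3e-06). The SD in log2 CPM was 0.04 in the parental and 0.28 in the KO-labelled group, and the groups were far apart. Its paralogue DENND2C also fell, from 5.71, 6.91 and 6.43 to 2.52, 3.68 and 4.75 CPM (-0.79, SE 0.21, adjusted p = 0.020), a call lost without parental 2, parental 3 or KO-labelled 2. DENND2A, at 2.49 ± 0.513 and 3.01 ± 0.816 CPM, was not called. The summed FPKM of the 3 genes went from 39.7 to 2.96, and the DENND2D share from 95.5% ± 0.387 to 56.9% ± 5.57.

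The DENND1 proteins are exchange factors for RAB35 on the endocytic route. DENND1B fell from 67.5, 71.9 and 59.1 CPM to 44.4, 38.4 and 42.9 CPM (-0.66, SE 0.10, adjusted p = 0.0012), and DENND1A rose from 23.5, 23.2 and 25.2 CPM to 28.4, 28.5 and 29.4 CPM (0.26, SE 0.08, adjusted p = 0.029). The DENND1A call was lost without any 1 of the parental libraries and without KO-labelled 2. DENND1A made up 34.5% ± 0.856 of the set's FPKM in the parental and 48.9% ± 1.73 in the KO-labelled libraries, and the shares did not overlap. DENND6B rose from 4.07 ± 0.326 to 7.03 ± 0.873 CPM. The other tested DENN genes (DENND4A, DENND4B, DENND4C, DENND5A, DENND5B and DENND6A) were not called.

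RABGAP1L is a TBC-domain gene whose intron holds the GPR52 gene, so it is the member next to the edited site. It read 42.7, 43.1 and 39.8 CPM in the parental and 29.4, 27.3 and 26.0 CPM in the KO-labelled libraries, and it fell in all 3 of the latter (-0.60, SE 0.08, adjusted p = 8.3e-04). On the authors' FPKM values the difference was smaller, 13.1 ± 1.54 against 9.78 ± 1.41, and limma did not call it (adjusted p = 0.057 on log2(FPKM + 1) and 0.054 on log2(FPKM + 0.1)). Its paralogue RABGAP1 was not called, and the RABGAP1L share of the pair was 41.9% ± 2.18 and 33.9% ± 4.21 of FPKM. Among the 5 tested genes on each side of RABGAP1L in the RefSeq gene order (leaving aside GPR52), 5 of 10 fell and none rose, with a median log2 fold change of -0.21. KIAA0040 fell furthest (-1.64, SE 0.26). Whether the neighbours' change bears on RABGAP1L was not tested.

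Of the other TBC genes, 6 fell and 5 rose. TBC1D9, the furthest, had 50.3, 47.8 and 47.4 CPM against 25.7, 19.4 and 17.7 CPM (-1.21, SE 0.13, adjusted p = 3.0e-04). TBC1D25, a GTPase-activating protein of autophagosomes, had 27.5, 25.1 and 26.6 CPM against 12.9, 11.5 and 16.2 CPM (-0.96, SE 0.13, adjusted p = 8.5e-04). Both were clearly lower in every KO-labelled library. TBC1D1, which with TBC1D4 controls GLUT4 vesicles, fell from 108, 105 and 108 CPM to 66.2, 64.2 and 72 CPM (-0.66, SE 0.07, adjusted p = 2.4e-04), while TBC1D4 rose from 24.8 ± 2.20 to 32.8 ± 1.09 CPM. By CPM the TBC1D4 share of the pair went from 18.8% ± 1.56 to 32.8% ± 1.29, and by FPKM from 10.3% ± 2.48 to 16.1% ± 0.728.

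TBC1D15, a GTPase-activating protein for RAB7, fell from 53.0 ± 1.71 to 38.8 ± 0.831 CPM. TBC1D30 and TBC1D22B also fell, but lost their calls without several of the single libraries. TBC1D8B rose from 7.46, 5.88 and 6.2 CPM to 13.1, 11.1 and 13.0 CPM (0.92, SE 0.13, adjusted p = 0.0010). TBC1D2B, an endosomal GTPase-activating protein, rose from 49.4, 49.7 and 46.4 CPM to 105, 84.0 and 65.5 CPM (0.81, SE 0.15, adjusted p = 0.0042). The KO-labelled libraries were uneven here, and KO-labelled 3 stood nearest to the parental level. SGSM2 (57.8 ± 3.58 to 76.5 ± 4.55 CPM) and TBC1D16 (114 ± 1.54 to 145 ± 10.5 CPM), which act on melanosomal RABs and on RAB4, rose as well. TBC1D9B, the most abundant TBC gene at 52.2 ± 2.80 and 55.9 ± 7.02 FPKM, was not called, nor were SGSM3 and TBC1D7, the next in parental level after TBC1D1.

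Paralogues often divide 1 job, and their balance can be compared only on the length-scaled FPKM values. In 28 sets, the share of some member moved by at least 10 percentage points in 5: DENND1, DENND2, RAB33, TBC1D2 and TBC1D10. TBC1D2B rose from 52.4% ± 2.20 of the TBC1D2 pair to 69.1% ± 9.45, with 75.6%, 73.4% and 58.2% in KO-labelled 1 to 3, so the third library lay close to the parental values. In the TBC1D10 set, TBC1D10A made up 55.2% ± 3.42 and 45.1% ± 7.94, and again KO-labelled 3 (54.1%) lay within the parental range. By CPM, 5 of 26 sets moved as far: DENND1, DENND2 and TBC1D2 as before, with RAB40 and the TBC1D1 and TBC1D4 pair in place of RAB33 and TBC1D10. The RAB5, RAB11, RAB2 and RAB27 sets kept each member's FPKM share within 5 points.

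**Figure D4:**
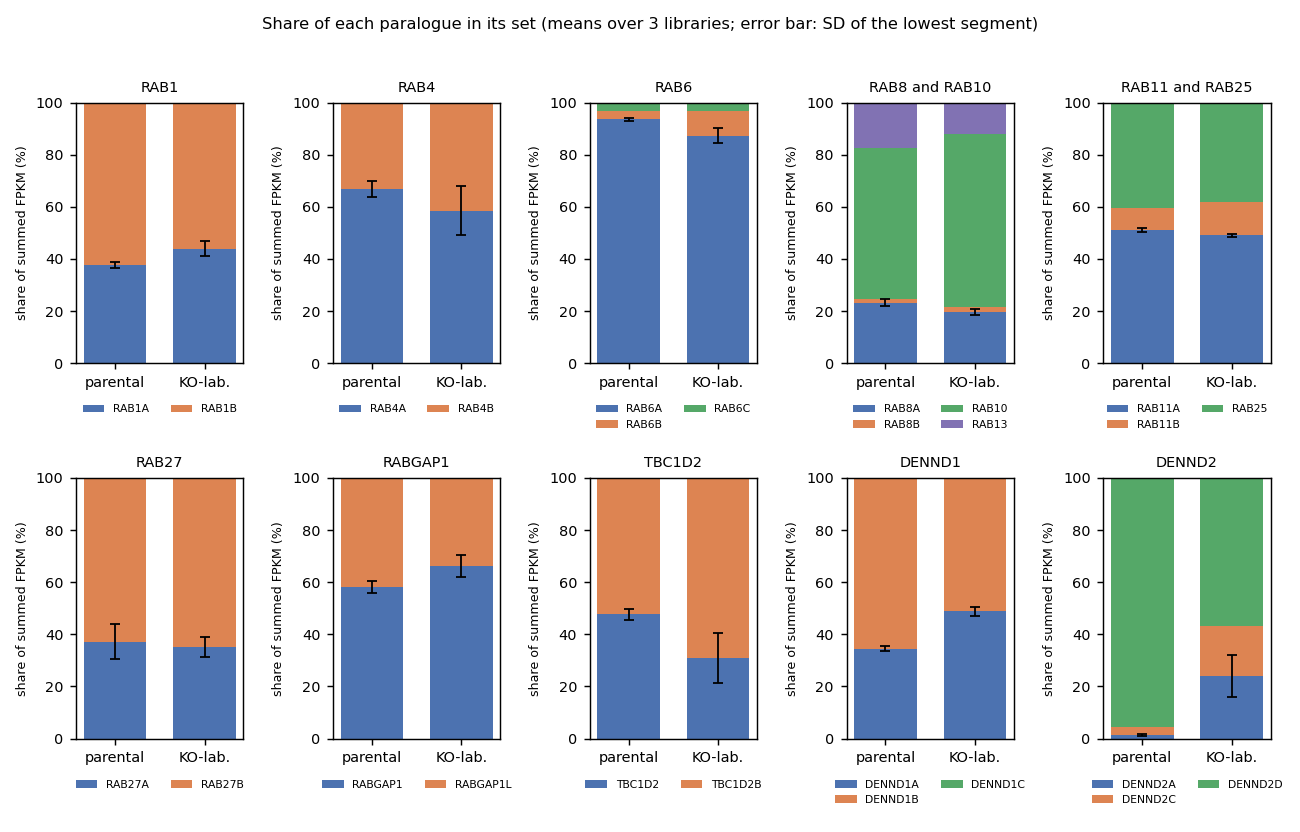
Share of each paralogue in the summed FPKM of its set (stacked to 100%), as means over 3 libraries, for 10 sets; the error bar is the SD of the lowest segment. The DENND2 bar shows DENND2D going from 95.5% to 56.9%, and the RAB27 bar shows nearly the same division in both groups.

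Members were next set beside the 5 tested genes on each side of them in the RefSeq order, which was available for all 100 tested members. Of the 46 called members, 31 had the sign of their neighbours' median. Agreement in sign alone does not mean that the neighbours' median was close to the member's own change in size. The same count was not made for all tested genes or for members not called. Whether 31 is more than other genes would give therefore cannot be told. RAB9A lay among genes that mostly fell (8 of 10, median -0.75), as did TBC1D25 (8 of 10, median -0.82). TBC1D2B, TBC1D16 and RAB10 lay among genes that mostly rose (9, 10 and 8 of 10, with medians of 0.81, 0.71 and 0.54). Near RAB38, RAB30, RAB3B and RAB27A the medians were close to 0 (0.03, 0.015, -0.10 and -0.15), and near DENND2D 7 of 10 fell with a median of -0.31. RAB1C, whose counts are uncertain because near-identical copies share its sequence, was not called (-0.24). All 10 of its neighbours fell (median -1.67). The part of the neighbourhood in these members' values was not tested.

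The rest of the pathway was counted from lists of 133 genes that are no members, of which 129 were tested: 23 rose, 40 fell and 66 were not called. The called share was 48.8%, against 40.8% of all tested genes (21.0% higher, 19.8% lower). The sum of 63 calls dropped to 40 without parental 1 and to 38 without parental 2. Genes that prenylate RABs or carry them off and onto membranes mostly fell (5 of 8: GDI2, CHM, RABGGTB, RABIF and RABAC1). GDI2, which extracts RABs bound to GDP from membranes, went from 464 ± 2.61 to 282 ± 26.4 CPM (-0.72, SE 0.08). Among exchange factors other than the DENN genes, 5 of 28 rose and 5 fell, a called share of 35.7%, and only 2 rose and 2 fell without parental 1 (3 and 2 without parental 2, 3 and 3 without parental 3). RGP1, a subunit of the RAB6 exchange factor, fell furthest of these, from 254, 258 and 248 CPM to 81.2, 73.5 and 72.6 CPM (-1.74, SE 0.07, adjusted p = 2.5e-06). In the TRAPP complex, the exchange factor for RAB1 and RAB11, 5 of 13 fell and only TRAPPC12 rose. The 5 falls became 3 without parental 1 or without parental 2. Of 4 other GTPase-activating genes RAB3GAP2 fell.

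Effectors were counted in lists named after the RABs. Of 12 effectors of RAB5 and RAB4, 2 rose and 3 fell, a called share of 41.7% against 40.8% of all tested genes. EEA1, the tether of early endosomes, read 56.7, 54.3 and 46.3 CPM against 31.7, 26.2 and 18.4 CPM (-1.05, SE 0.18, adjusted p = 0.0028). Of 10 RAB11 effectors 1 rose (WDR44) and 2 fell (RAB11FIP1 and MYO5C), a called share of 30%. The list of RAB7 effectors held 9 tested genes, among them RILPL1 and RILPL2, relatives of RILP that need not bind RAB7. Of these 9 genes 2 rose (RILPL2 and VPS41) and 5 fell, including RILP and RILPL1, a called share of 77.8%. Only 3 fell without parental 1 and 2 without parental 2. Among the effector lists, that of RAB27 and RAB3 held the largest changes. Of its 11 tested genes 4 rose and 5 fell, a called share of 81.8%. SYTL5, a synaptotagmin-like RAB27 effector, fell from 12.4, 12.4 and 12.3 CPM to 2.34, 2.51 and 3.36 CPM (-2.17, SE 0.15, adjusted p = 3.4e-05), and SYTL2 from 60.3 ± 2.47 to 27.1 ± 2.71 CPM (-1.15, SE 0.09). RIMS1, a RAB3 effector of synapses, was low, with 26, 23 and 28 counts in the parental and 0, 0 and 1 in the KO-labelled libraries.

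The remaining lists were mixed. Their called shares were 36.4% (Golgi effectors), 55.6% (exocyst) and 45.5% (effectors of RAB8, RAB10 and RAB35). The share over all tested genes was 40.8%. Of 11 effectors of RAB1 and RAB6 at the Golgi, 4 fell and none rose, but 1 fell without parental 1 or parental 2. The exocyst, which tethers secretory vesicles, had 3 rises and 2 falls among 9 subunits, with EXOC7 rising from 125, 124 and 127 CPM to 226, 203 and 211 CPM (0.77, SE 0.07, adjusted p = 9.0e-05). Of 11 effectors of RAB8, RAB10 and RAB35, 3 rose and 2 fell. PPM1H, a phosphatase that removes the LRRK2 phosphate from RABs, rose from 0.561, 0.636 and 0.386 CPM to 6.18, 3.47 and 9.85 CPM (3.63, SE 0.48, adjusted p = 7.0e-04). Every KO-labelled library lay above every parental one, but these libraries differed among themselves by more than the parental ones did.

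**Figure D5:**
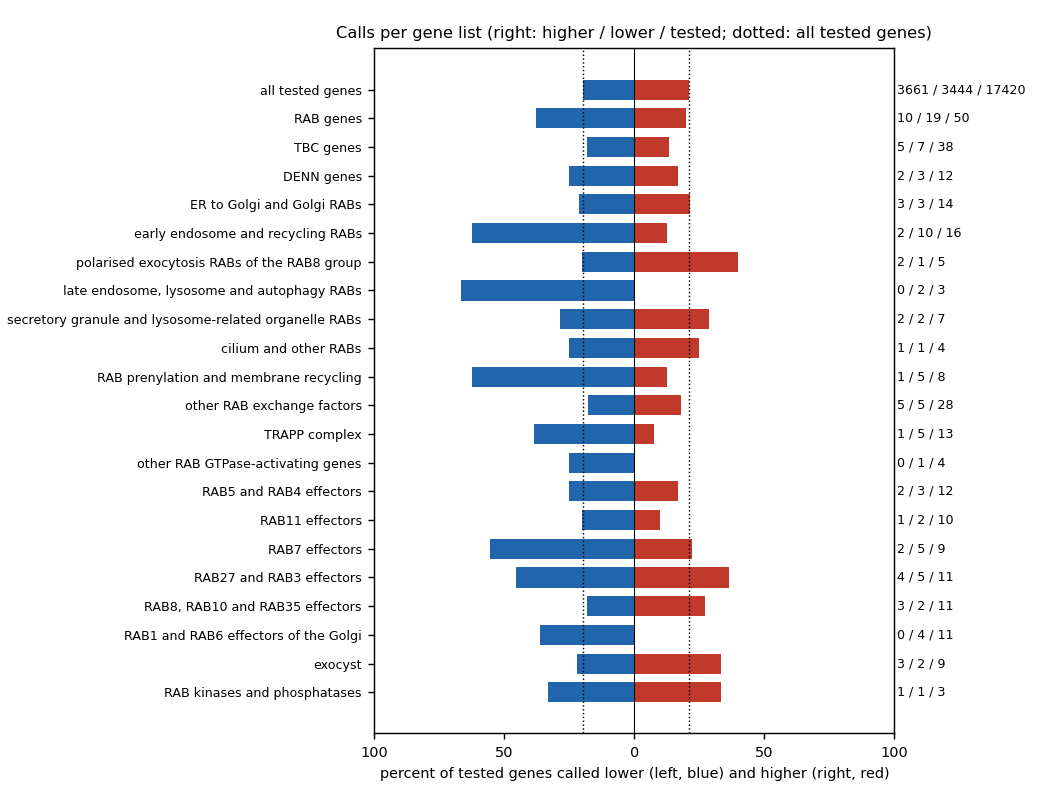
Percent of the tested genes called lower (left, blue) and higher (right, red) in each family, role and pathway list, with the counts (higher / lower / tested) at the right and dotted lines at the shares of all tested genes (19.8% and 21.0%). Early endosome and recycling RABs (10 of 16 lower) and the prenylation list (5 of 8 lower) reach far to the left of the dotted line. So do the late endosome RABs (2 of 3) and the list of RAB7 effectors (5 of 9), and all RAB genes (19 of 50) pass it by less.

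The libraries labelled KO were less alike than the parental ones. Over the tested members, the median SD in log2 CPM was 0.07 in the parental and 0.13 in the KO-labelled group, and 68% of members varied more in the latter, against 76.3% of all tested genes. Leaving out KO-labelled 3 added 10 members to the called ones (DENND6A, RAB13, RAB1A, RAB3A, SGSM1, TBC1D10A, TBC1D10B, TBC1D2, TBC1D29 and TBC1D8) and lost none. The count of all genes called went from 7105 to 9367 in that fit. Leaving out parental 2 lost 8 called members and parental 1 lost 7, and neither added any. TBC1D8, singled out after its values were seen, read 84.3, 86.5 and 83.8 CPM in the parental libraries and 53.0, 52.7 and 105 CPM in KO-labelled 1 to 3, so that KO-labelled 1 and 2 lay below and KO-labelled 3 above the parental range. Of the 46 called members, 35 stayed called in all 6 fits that left out 1 library, 10 lost the call in at least 1 of them (DENND1A, DENND2C, RAB21, RAB22A, RAB25, RAB4B, RAB5C, RAB8B, TBC1D22B and TBC1D30), RAB33A could not be tested in 1, and no sign turned.

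The 12 members kept out of the test by low counts were RAB3C, RAB34, RAB37, RAB39A, RAB39B, RAB40A, RAB44, TBC1D3, TBC1D10C, TBC1D26, TBC1D28 and DENND1C. RAB39B was the highest of them, with 2, 2 and 1 counts in the parental and 17, 22 and 6 in the KO-labelled libraries. DENND1C had 1, 2 and 0 counts in the parental and none in the KO-labelled libraries. Counts of the TBC1D3 genes, RAB6C, RAB1C and RAB43 are uncertain as well, since near-identical copies or readthrough transcripts share their sequence.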

How the data were processed

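Polyadenylated RNA of 6 cultures was sequenced, per the labels' protocols with a directional library kit. The authors deposited raw counts per gene symbol and FPKM values (fragments scaled to transcript length and library size), 1 column per library. Cufflinks 2.0.2, STAR 2.4.0f1 and SAMtools 0.1.19 were listed, with hg19, per the submitters' processing notes. Annotation, counting program and strand setting are not given in the sources. Without a known strand setting, overlapping and antisense genes cannot be told apart. Samples were grouped by the genotype label. KO-labelled replicate numbers follow the order of deposition.

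Counts were tested with edgeR 4.0.16 (R 4.3.3): filterByExpr (minimum count 10, minimum total 15), TMM, the quasi-likelihood test over all 6 libraries and Benjamini-Hochberg adjustment over 17420 genes, with a threshold of 0.05. The SE is the log2 fold change divided by the square root of F. CPM uses TMM library sizes, and 1 count is worth 0.0316 to 0.0390 CPM of the library total. An exact test of 3 against 3 libraries cannot go below 0.1. On simulated counts (16718 genes), the edgeR steps called 40 of 50 genes with a log2 fold change of 1, 36 of 48 at -1, 9 of 50 at 0.5, 4 of 49 at -0.5 and 6 of 16521 unchanged genes. Only 200 genes were given a change there, against 7105 called in the data. The adjusted threshold was thus stricter in the simulation, and its detection rates do not carry over to these data.

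The members and lists were chosen with earlier results of these data known. Genes named with values follow a rule: RABGAP1L and GPR52, called members without overlap and with an average log2 CPM of at least 2 (up to 12 RAB, 12 TBC and 8 DENN, by size of change), the 4 highest by FPKM per family, members of sets whose shares moved by 10 points, and up to 3 called genes per pathway list. Values of other members (RAB1C, RAB3D, RAB6A, RAB11B, RAB25, RAB31, RAB39B, TBC1D8 and those of the closing section) were added after they were seen. The rule also finds 8 symbols in the FPKM table alone, so that 120 are listed there. Promoters were found for 89 of the 112 members in RefSeq (GRCh38.p14), and gene order, from the same source, for 14767 tested genes (84.8%). No protein sequences were used. A few genes of the lists are not reported here.

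The alternatives were normalisation by library totals, upper quartile or DESeq2 size factors, no filter or 10 CPM in 3 libraries, DESeq2 1.42.0, limma 3.58.1 (voom, and log2(FPKM + 1) or log2(FPKM + 0.1)), a test against a 1.5-fold change and leaving out each library.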

Additional observations from a re-analysis of the deposited data

How the results depend on the processing

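No paired analysis was possible because the parental wells and the edited populations share no number in the labels. Calls of all genes, of members and of each family stayed within 1.5 times under the other normalisations, filters, DESeq2, voom and FPKM. Members called numbered 16 to 22 higher and 21 to 29 lower there. Of the 46 called members, 35 were still called with the same sign on log2(FPKM + 1) and 36 on log2(FPKM + 0.1). The test against a 1.5-fold change called fewer by construction: all genes called 1922 (1019 higher, 903 lower), members called higher 5 and lower 7, RAB genes called 8 (4 higher, 4 lower), TBC genes called 3, DENN genes called 1, pathway genes called 9, and RABGAP1L log2 fold change -0.60 (adjusted p = 0.77). The RABGAP1L log2 fold change was -0.39 on log2(FPKM + 1) and -0.42 on log2(FPKM + 0.1), both not called, and the cause was not tested. Leaving out 1 library gave all genes called 4879 to 9367, members called higher 15 to 22 and lower 22 to 35, RAB genes called 26 to 33, TBC genes called 10 to 18, DENN genes called 3 to 6 and pathway genes called 38 to 80. The RABGAP1L log2 fold change ran from -0.65 to -0.56 in these fits. The SGSM3 log2 fold change, not called, turned to 0.016 and 0.017 on log2(FPKM + 1) and log2(FPKM + 0.1), and the TMF1 log2 fold change, called in edgeR, to 0.0023 and 0.0024. Precision differed between members, as their SEs show, and counts of a few reads limit it for RAB33A and the members not tested.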

Other observations

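The counts and the FPKM values, both made by the authors from the same libraries, disagreed in level for a few members. Over 100 tested members the median was 2.74 CPM per FPKM in the parental libraries, but 9 members lay under 1 and 4 under 0.5: RAB24 at 0.0962, RAB43 at 0.366, RAB4B at 0.390 and RAB1C at 0.422. RAB24, linked to autophagy, thus had 1.43 ± 0.356 CPM (SD, n = 3) and 14.6 ± 0.527 FPKM. In the KO-labelled libraries it had 1.46 ± 0.144 CPM and 18.9 ± 1.80 FPKM, and its FPKM values did not overlap between groups while its CPM values did. In GENCODE, 84.5% of the exonic bases of RAB43 are shared with ISY1-RAB43 on the same strand, and 73.3% of those of RAB4B with same-strand genes such as the readthrough MIA-RAB4B. RAB24 and RAB1C have no exonic overlap there. SGSM3 had the largest same-strand overlap of the tested members (89.5%), but its 2.80 CPM per FPKM lay near the median. The part of these overlaps in the values was not tested. For 6 tested members the FPKM means and the edgeR fit differed in sign (RAB3D, RAB40B, SGSM3, TBC1D20, TBC1D23 and TBC1D32), and none of the 6 was called.

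Of the 8 symbols present only in the FPKM table, RAB32, RAB42, RAB9B and TBC1D21 were at or near 0 in every library. TBC1D3B, TBC1D3C, TBC1D3G and TBC1D3H, near-identical copies, ranged from 0.712 FPKM (TBC1D3B, parental 2) to 1.75 FPKM (TBC1D3G, KO-labelled 2), and the groups overlapped for all of these but TBC1D3B (0.712 to 0.901 FPKM in the parental and 0.943 to 1.30 FPKM in the KO-labelled libraries).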
